A study of Mus musculus with 6 samples.

Results

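The genes described here encode the enzymes, transporters and regulators that carry glucose into the cell, break it down to pyruvate and lactate, and adjust this flow to oxygen. They were chosen by name from a list of 32 genes. A gene was measured where the array annotation gave a probe set exactly 1 symbol, and each was read from whichever of its probe sets averaged highest across the 6 arrays. This left 29 of the 32 genes, among 18193 genes in all. Gpi1, Eno1 and G6pdx were not analysed here.

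Expression arrays were made from leukaemias of 6 mice on a C57BL/6 background, 3 Cdh1-deficient and 3 Cdh1-intact, with 1 array per mouse. The Cdh1 of these labels is the APC/C activator encoded by Fzr1. Donors of both genotypes were littermates and carried the gene-trap allele with a floxed cDNA on both copies (Cdh1f/f). Per the series text some also had Mx1-Cre, a recombinase under an interferon-responsive promoter, which removes the cDNA in blood-forming cells and in other tissues. Mice of both kinds received pIpC at 7 to 8 weeks of age. Marrow mononuclear cells were taken 4 weeks after the last dose, 2 days after 150 mg/kg 5-fluorouracil. N-myc was delivered by the retroviral vector pMXs-IG, so all 6 leukaemias carried it. RNA came from GFP-positive marrow cells sorted from each moribund mouse, and the labels call all 6 samples B-cell leukaemia. The comparison asked how Cdh1-deficient leukaemia cells differed from Cdh1-intact ones.

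Glucose enters through the GLUT carriers, is trapped by hexokinase and committed to glycolysis by phosphofructokinase. Pyruvate is then reduced to lactate by lactate dehydrogenase or passed to the mitochondrial pyruvate dehydrogenase complex, which the PDK kinases switch off. Hypoxia-inducible factor (HIF) and MYC proteins both drive genes of this pathway, and proliferating lymphoid cells are known for high glycolysis. The activator Cdh1 has a direct tie to it, because the glycolytic regulator PFKFB3 is a known substrate of the APC/C with Cdh1. That control acts on the protein, which the arrays did not measure.

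Arrays differed in lineage transcripts before any comparison of groups. B-lineage markers averaged 7.98 to 8.45 (log2, 13 measured genes) on the Cdh1-deficient arrays, against 8.22, 4.94 and 8.84 on Cdh1-intact arrays 1, 2 and 3. T and NK cell markers (16 genes) averaged 5.19 to 5.27 on the Cdh1-deficient arrays, against 5.17, 8.62 and 6.42 on the Cdh1-intact arrays. Cdh1-intact array 2 thus held the T-cell receptor gene Cd3g at 12.48 and the B-cell receptor gene Cd79b at 4.35. Neutrophil markers (12 genes) averaged 8.78, 10.74 and 9.57 on Cdh1-deficient arrays 1, 2 and 3, against 9.55, 5.91 and 8.69 on the Cdh1-intact arrays. Macrophage (10 genes) and erythroid (7 genes) markers were highest on Cdh1-intact array 1, at 7.02 and 6.59. The B-lineage label of Cdh1-intact array 2 therefore went against its markers, and values without that array are given below where it moved a named difference by over 1.5 times. Fzr1 itself read 8.10, 7.73 and 8.22 on the Cdh1-deficient arrays and 8.92, 8.04 and 8.92 on the Cdh1-intact arrays. The groups overlapped at Cdh1-intact array 2 alone, and the difference of −0.61 (SE 0.28, limma adjusted p = 0.849) was −0.91 without it. No source used here places its probes relative to the disrupted part, so these values do not check the labels.

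Promoters of 5 genes on which the results turn are printed here, because HIF and MYC are known to bind such sequences. Ldha and Pdk1 each have a second annotated start, whose promoter is not printed. The capitals mark the HIF core motifs ACGTG and GCGTG, read on both strands, and the E-box CACGTG bound by MYC proteins, which contains ACGTG on each strand. Each run is the 250 bases before the annotated gene start, 5′ to 3′ on the gene's strand, from RefSeq on build GRCm38.p6. They lie at chr7:46845554-46845803 (plus strand, Ldha), chr6:142507958-142508207 (minus strand, Ldhb), chr2:71872974-71873223 (plus strand, Pdk1), chr3:104638414-104638663 (plus strand, Slc16a1) and chr6:82774455-82774704 (minus strand, Hk2).
Ldha: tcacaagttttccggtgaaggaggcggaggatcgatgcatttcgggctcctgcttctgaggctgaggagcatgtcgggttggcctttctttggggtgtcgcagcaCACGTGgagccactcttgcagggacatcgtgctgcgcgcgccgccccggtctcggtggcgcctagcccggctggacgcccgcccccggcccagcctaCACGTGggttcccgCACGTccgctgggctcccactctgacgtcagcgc
Ldhb: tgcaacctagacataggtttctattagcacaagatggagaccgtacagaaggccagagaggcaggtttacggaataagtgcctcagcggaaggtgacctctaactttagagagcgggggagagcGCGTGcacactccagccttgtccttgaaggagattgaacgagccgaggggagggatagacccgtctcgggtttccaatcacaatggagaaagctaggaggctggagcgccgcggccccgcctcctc
Pdk1: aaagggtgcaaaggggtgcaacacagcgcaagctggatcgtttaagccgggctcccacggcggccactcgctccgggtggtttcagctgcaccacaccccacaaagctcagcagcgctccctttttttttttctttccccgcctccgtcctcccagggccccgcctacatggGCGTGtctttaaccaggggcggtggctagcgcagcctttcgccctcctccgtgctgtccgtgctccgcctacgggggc
Slc16a1: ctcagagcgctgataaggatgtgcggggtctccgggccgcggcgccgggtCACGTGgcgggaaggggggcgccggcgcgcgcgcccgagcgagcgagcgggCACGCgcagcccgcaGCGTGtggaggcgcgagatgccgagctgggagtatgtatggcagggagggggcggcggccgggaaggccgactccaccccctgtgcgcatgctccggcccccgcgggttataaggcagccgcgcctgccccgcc
Hk2: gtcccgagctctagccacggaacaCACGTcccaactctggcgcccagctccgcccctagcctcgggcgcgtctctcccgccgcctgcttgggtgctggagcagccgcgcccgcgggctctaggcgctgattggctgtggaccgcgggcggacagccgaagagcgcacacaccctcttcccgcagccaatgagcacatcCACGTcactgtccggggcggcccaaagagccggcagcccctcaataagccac
The printed Ldha promoter held 2 E-boxes and that of Slc16a1 held 1, while those of Ldhb, Pdk1 and Hk2 held none. Ldhb and Pdk1 each had a single HIF core motif in the printed window and Hk2 had 2. At the second starts, Ldha had 1 HIF core motif and no E-box, and Pdk1 had neither. RefSeq promoters were found for 28 of the 29 genes, with 42 annotated starts. One or more HIF core motifs stood in 32 of the 42 promoters (76.2%), against 38.6% of all 32851 promoters in the table. E-boxes stood in 7 of 42 (16.7%), against 6.02% of all. The promoters were not matched for base composition, and a match of letters is not a bound site. The list was made of pathway and hypoxia genes, some of them known HIF targets. Its share of HIF motifs is therefore not independent of how the genes were chosen, and it was not tested. Some windows of Aldoa and of Pfkm overlap, so the same motif was counted repeatedly.

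No gene of the pathway passed the test between the groups. With limma, 0 of the 29 genes had an adjusted p under 0.05, as did 0 of all 18193 genes (0%), and the adjusted p of the 29 ran from 0.849 to 0.996. The median log2 difference of the 29, Cdh1-deficient minus Cdh1-intact, was 0.035, beside 0.00338 over all genes. Their differences ran from −1.25 for Ldhb to 0.97 for Hk2, with 15 above 0 (51.7%, beside 50.9% of all genes) and 14 below (48.3%, beside 49.1%). Of the 29, 25 lay at or above the median level of genes. With probe sets below the median level left out, these 25 had a median of 0.052, beside 0.060 over 10989 genes. Among the 25, 14 were above 0, where 62.5% of the 9097 genes at or above the median level were. An unadjusted p under 0.05 was reached by 3 genes (10.3% of the 29), Pdk1 and Slc16a1 higher and Ldhb lower, where 5.50% of all genes met the same limit. For the higher direction that background was 4.01% and for the lower 1.49%. This count is small, and it moved between 0 and 3 as single arrays were left out. Without Cdh1-intact array 2 it was 1 (Pdk1), and it was also 1 without Cdh1-deficient array 2 (Eno2) or 3 (Pfkfb4). It was 0 without Cdh1-deficient array 1. The count was 3 without Cdh1-intact array 1, with the same genes as on all arrays. Without Cdh1-intact array 3 it was 3 with Hk2, Pdk1 and Pfkm.

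All 3 arrays of one group lay on one side of the other group for 8 of the 29 genes. Of these, 6 were higher in Cdh1-deficient cells (Hk2, Pfkm, Pfkfb4, Slc16a1, Pdk1 and Pdha1), where 6.65% of all genes did so, and 2 were lower (Ldhb and Pgk1), where 5.09% did so. Together they made 27.6% of the 29, beside 11.7% of all genes. The list was drawn up with results of these data known, so this share describes the 29 genes and was not tested. The count was 6 with quantile normalization (20.7%, beside 11.5% of all genes) and 6 when all probe sets of a gene were averaged (20.7%, beside 2179 of all 18193 genes). With suffixed probe sets left out it was 6 among 21 genes (28.6%, beside 11.7%). Suffixed means that the name ends in s_at, x_at or a_at, whether or not the target is shared with another gene. Of the 29 chosen sets, 10 had the a suffix and 4 had x or s.

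**Figure D1:**
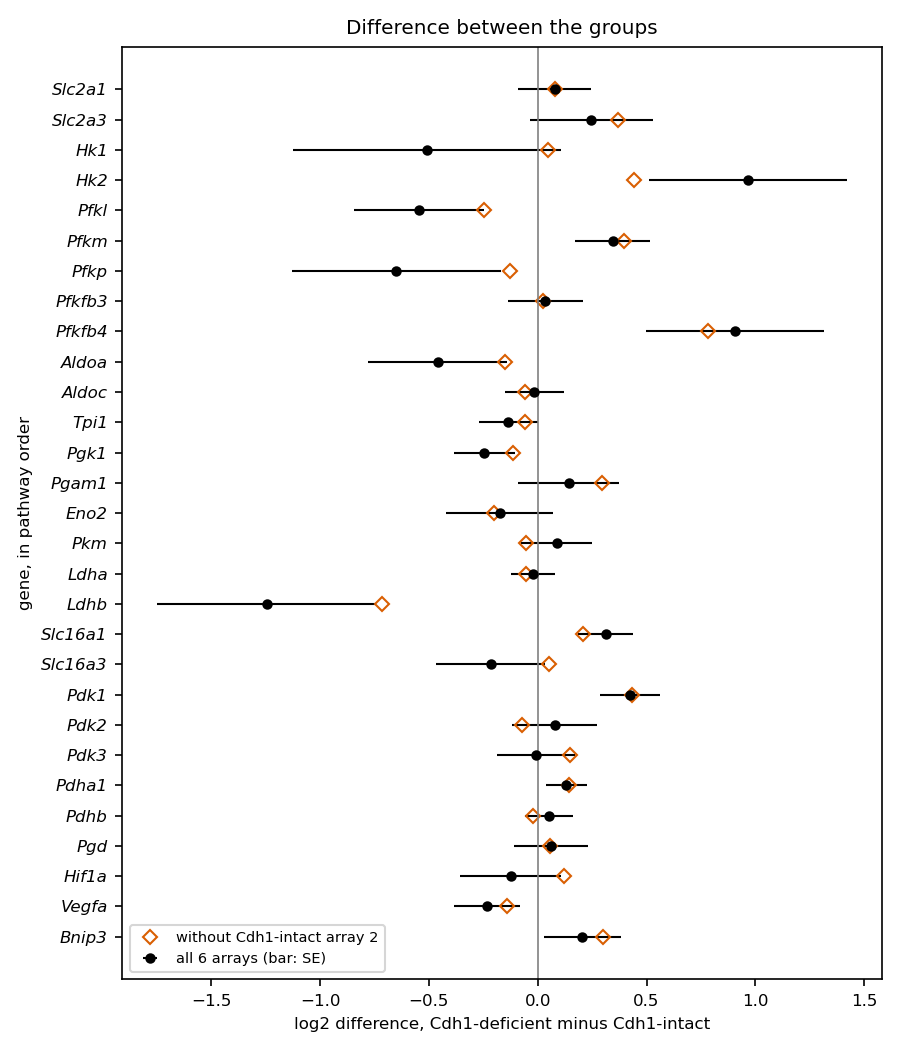
Log2 difference of each of the 29 genes, Cdh1-deficient minus Cdh1-intact (x axis), with genes in pathway order down the page. Filled points with SE bars use all 6 arrays and open diamonds leave out Cdh1-intact array 2, and Hk1, Hk2, Pfkp, Aldoa and Ldhb lie nearer 0 without that array.

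Hexokinases, which phosphorylate glucose on entry, had differences of opposite sign. Hk2, the isoform linked to growth and tumours, read 9.62, 9.58 and 9.24 on Cdh1-deficient arrays 1, 2 and 3, against 8.88, 7.46 and 9.20 on the Cdh1-intact arrays. The groups did not overlap, but the highest Cdh1-intact array lay only just under the lowest Cdh1-deficient one. The difference was 0.97 (SE 0.46, limma adjusted p = 0.849), or 1.95 times the Cdh1-intact level, and 0.44 without Cdh1-intact array 2. Hk1, the housekeeping isoform, read 6.79, 8.18 and 6.73 on the Cdh1-deficient arrays, against 7.44, 8.84 and 6.93 on the Cdh1-intact arrays. Its groups overlapped, with array 2 of each group the highest in that group. Its difference of −0.51 (SE 0.62, limma adjusted p = 0.887) became 0.045 without Cdh1-intact array 2. On that array Hk1 was the highest of the 6 and Hk2 the lowest, 1.91 above and 1.78 below the median of the other 5 arrays (log2).

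Phosphofructokinase, the committing step, has liver (Pfkl), muscle (Pfkm) and platelet (Pfkp) forms. Pfkp read 10.21, 9.53 and 10.23 on the Cdh1-deficient arrays, against 10.07, 11.68 and 10.16 on the Cdh1-intact arrays. A single Cdh1-intact array, array 2, stood 1.52 above the median of the other 5, and the difference of −0.65 (SE 0.48) shrank to −0.13 without it and was −0.42 without Cdh1-deficient array 2. Pfkl behaved alike on its chosen probe set, with 7.31, 6.81 and 6.73 on the Cdh1-deficient arrays and 7.23, 8.09 and 7.16 on the Cdh1-intact arrays. Its difference was −0.55 (SE 0.30), or −0.25 without Cdh1-intact array 2. All 3 Pfkl probe sets were below 0, from −0.55 to −0.48. Without that array the lowest-reading set moved away from 0, to −0.67, and the mean over the 3 sets was −0.40. However, this lowest-reading set was high only in Cdh1-intact array 1 (7.37), while every other value lay within 5.99 to 6.29. Its difference, and its pull on that mean, thus rested mostly on Cdh1-intact array 1. Pfkm was the exception among the 3 forms. It read 8.15, 8.20 and 8.04 on the Cdh1-deficient arrays, against 7.45, 7.89 and 8.03 on the Cdh1-intact arrays, so that the groups just separated. The Pfkm difference was 0.34 (SE 0.17) and 0.17 without Cdh1-intact array 1. None of the 3 passed (limma adjusted p = 0.849 for each).

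The bifunctional PFKFB enzymes make and remove fructose 2,6-bisphosphate, the strongest activator of phosphofructokinase. Pfkfb3, whose protein is the known Cdh1 substrate, read 8.18, 8.19 and 7.86 on the Cdh1-deficient arrays and 7.80, 8.02 and 8.30 on the Cdh1-intact arrays. These overlapped throughout, with a difference of 0.035 (SE 0.17, limma adjusted p = 0.975). A second probe set differed by −0.17 (SE 0.13), so the probe sets of the gene disagreed in sign. Pfkfb4, a hypoxia-induced relative, read 6.63, 8.00 and 6.55 on the Cdh1-deficient arrays, against 6.34, 5.90 and 6.22 on the Cdh1-intact arrays. All Cdh1-deficient values lay above the Cdh1-intact ones, but array 2 of the Cdh1-deficient group carried most of the gap. The difference of 0.91 (SE 0.41, limma adjusted p = 0.849) was 0.44 without that array. It was the array with the highest neutrophil marker mean (10.74), and the part of neutrophil transcripts in this value was not tested.

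**Figure D2:**
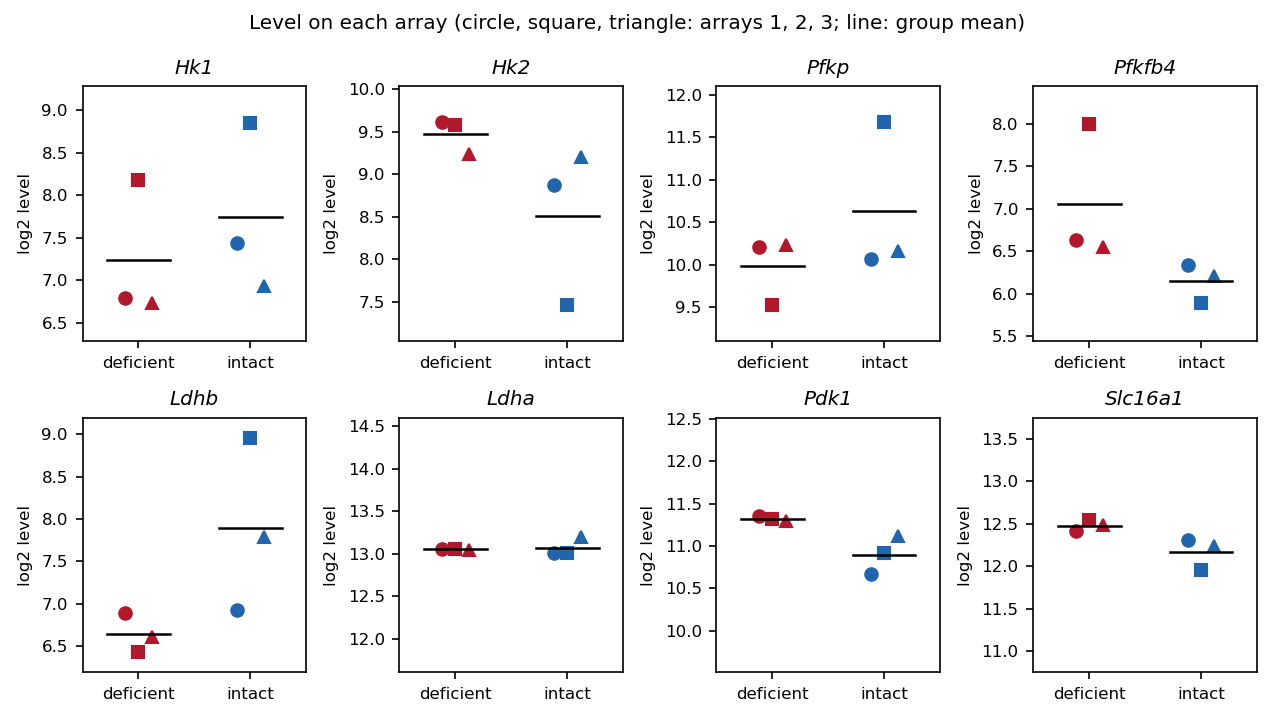
Log2 level of 8 genes on each array, with Cdh1-deficient arrays left and Cdh1-intact arrays right; circle, square and triangle are arrays 1, 2 and 3, the line is the group mean, and each panel spans 3 log2 units. The square of the Cdh1-intact group stands apart for Hk1, Hk2, Pfkp and Ldhb, while the 6 Ldha values span 0.19.

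In the middle and lower pathway, 5 of 7 enzymes had differences below 0 and 1, Pgk1, had groups that did not overlap. Aldoa, the main aldolase, read 10.97, 11.61 and 11.24 on the Cdh1-deficient arrays, against 11.60, 12.35 and 11.25 on the Cdh1-intact arrays. The groups overlapped and Cdh1-intact array 2 was the highest, so the difference of −0.46 (SE 0.32) was −0.15 without it. Its 5 probe sets agreed in sign, from −0.62 to −0.31, and from −0.30 to −0.15 without Cdh1-intact array 2. Without Cdh1-intact array 3 the Aldoa difference was −0.70. Pgk1, the kinase that makes the first ATP of the pathway, read 12.33, 12.40 and 12.31 on the Cdh1-deficient arrays, against 12.51, 12.86 and 12.41 on the Cdh1-intact arrays. The groups separated by the narrowest margin of the 8 genes, 12.40 against 12.41, with a difference of −0.25 (SE 0.14, limma adjusted p = 0.849), or −0.11 without Cdh1-intact array 2. Triose phosphate isomerase (Tpi1) differed by −0.13 (SE 0.13), or −0.060 without that array and −0.037 without Cdh1-deficient array 2. The mutase Pgam1 differed by 0.14 (SE 0.23) and pyruvate kinase (Pkm) by 0.086 (SE 0.16), and all 3 had overlapping groups. Without Cdh1-intact array 2 these were 0.30 for Pgam1 and −0.053 for Pkm. Pgam1 was lowest on Cdh1-intact array 3, at 11.04 against 11.65 to 11.87 elsewhere, and its difference was −0.12 without that array. The brain-type forms Aldoc and Eno2 averaged 4.76 and 4.03 over the 6 arrays, below the median level of all genes (5.97). They differed by −0.016 (SE 0.14) and −0.17 (SE 0.25). The Aldoc value was −0.059 without Cdh1-intact array 2. The Eno2 value was −0.0018 without Cdh1-deficient array 1 and −0.44 without Cdh1-deficient array 2. Several of these genes have processed pseudogenes and were read by probe sets that can bind related transcripts, Tpi1 and Aldoa among them, so their levels carry that uncertainty.

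The lactate dehydrogenase genes had the smallest (Ldha) and the largest (Ldhb) range over the 6 arrays among the 29. Ldha, which encodes the subunit favouring lactate production, read 13.06, 13.05 and 13.05 on the Cdh1-deficient arrays and 13.01, 13.01 and 13.20 on the Cdh1-intact arrays. Its whole range over 6 arrays was 0.19 on the log2 scale and the difference −0.021 (SE 0.10, limma adjusted p = 0.974), or −0.053 without Cdh1-intact array 2. Ldhb, the subunit typical of heart and of oxidative tissues, read 6.90, 6.43 and 6.61 on the Cdh1-deficient arrays, against 6.93, 8.96 and 7.79 on the Cdh1-intact arrays. The groups separated only at 6.90 against 6.93, since Cdh1-intact array 1 lay with the Cdh1-deficient arrays and arrays 2 and 3 stood above. The difference was −1.25 (SE 0.50, limma adjusted p = 0.849), or 0.422 times the Cdh1-intact level. Leaving out Cdh1-intact array 2 gave −0.71.

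The other 3 probe sets of Ldhb drew the same line more sharply. One of them read 3.01, 3.18 and 2.63 on the Cdh1-deficient arrays, against 2.74, 8.91 and 7.42 on the Cdh1-intact arrays. The remaining pair read 4.35 to 4.69 and 4.40 to 4.62 on the Cdh1-deficient arrays. On Cdh1-intact arrays 1, 2 and 3 that pair read 4.65, 9.15 and 7.93, and 4.67, 9.05 and 7.63. On these 3 sets the transcript was thus near the low end of the scale on 4 arrays. Cdh1-intact array 1 lay within the Cdh1-deficient range, or just above it on the last set (4.67 against at most 4.62). The differences of the 3 sets ran from −3.42 to −2.64, and the mean over all 4 probe sets was −2.50. Without Cdh1-intact array 2 they ran from −2.14 to −1.68, with a mean over the 4 of −1.57. The 2 arrays with high Ldhb were those with raised T and NK markers: Cd3g read 3.31, 3.47 and 3.52 on the Cdh1-deficient arrays, against 3.25, 12.48 and 7.95 on the Cdh1-intact arrays. The part of T or NK cell transcripts in the Ldhb difference was not tested. In bulk arrays, fewer cells of a type and less RNA per cell cannot be told apart.

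**Figure D3:**
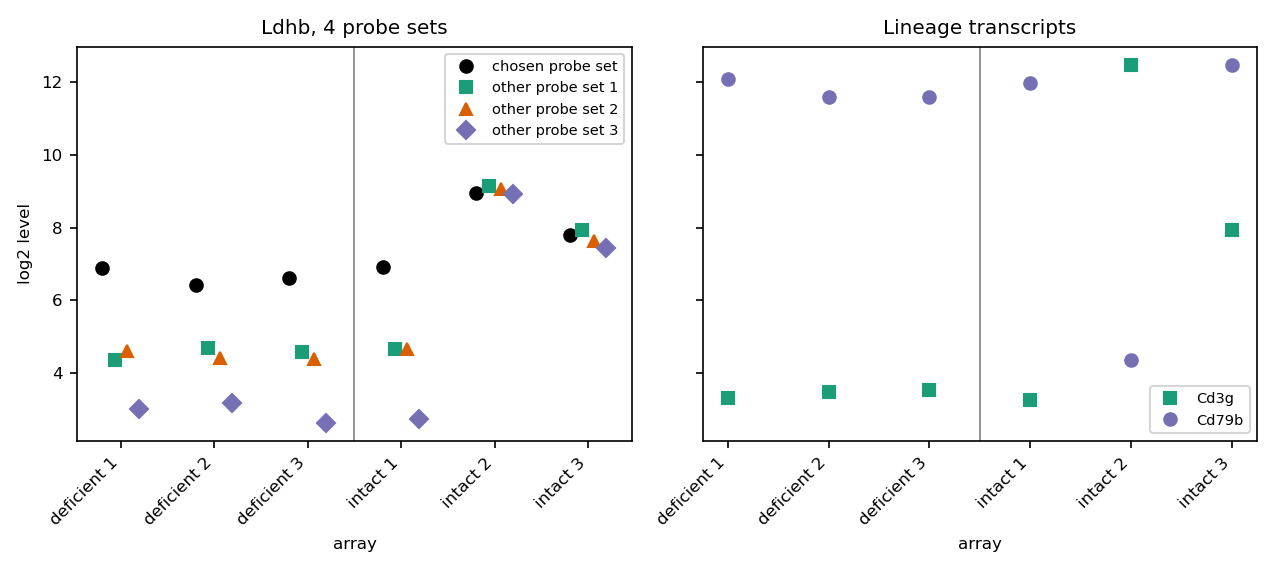
Log2 level on each array of the 4 Ldhb probe sets (left) and of the T-cell gene Cd3g and the B-cell gene Cd79b (right), Cdh1-deficient arrays first. All 4 Ldhb probe sets are highest on Cdh1-intact arrays 2 and 3, the arrays where Cd3g reads 12.48 and 7.95.

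Of the 4 carriers for glucose and lactate, Slc16a1 alone had groups that did not overlap. The ubiquitous glucose carrier Slc2a1 (GLUT1) read 9.17, 8.93 and 9.13 on the Cdh1-deficient arrays and 8.72 to 9.27 on the Cdh1-intact arrays, with a difference of 0.078 (SE 0.17). The high-affinity carrier Slc2a3 (GLUT3) read 10.26, 11.18 and 10.36 on the Cdh1-deficient arrays, against 10.08, 10.60 and 10.38 on the Cdh1-intact arrays. Cdh1-deficient array 2 was the highest, and the difference of 0.25 (SE 0.28) was −0.045 without it and 0.37 without Cdh1-intact array 2. Slc16a1 (MCT1), a lactate carrier and a known MYC target, read 12.41, 12.54 and 12.49 on the Cdh1-deficient arrays, against 12.31, 11.96 and 12.24 on the Cdh1-intact arrays. The groups did not overlap, and the difference was 0.31 (SE 0.13, limma adjusted p = 0.849), or 1.24 times, and 0.21 without Cdh1-intact array 2. Its second probe set, at 5.01 on average, differed by −0.30 (SE 0.43), so the mean over both was 0.00378. Without Cdh1-intact array 2 the second set gave −0.59 and the mean −0.19. Slc16a1 lies on chromosome 3, where the 446 genes at or above the median level had a median difference of 0.31 and 85.9% were higher in Cdh1-deficient cells, against 0.087 and 62.5% for all 9097 such genes. The share of that chromosome-wide shift in Slc16a1 was not tested. Slc16a3 (MCT4), the exporter of highly glycolytic cells, averaged 4.08 and was highest on Cdh1-intact array 2 at 4.73. Its difference of −0.22 (SE 0.25) was 0.053 without that array.

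Among the kinases and subunits that govern pyruvate entry, Pdk1 and Pdha1 had groups that did not overlap. Pdk1, the kinase that turns off pyruvate dehydrogenase and is a known HIF target, read 11.36, 11.32 and 11.30 on the Cdh1-deficient arrays, against 10.67, 10.92 and 11.12 on the Cdh1-intact arrays. All Cdh1-deficient arrays lay close together (SD 0.029, against 0.22 in Cdh1-intact cells) and above every Cdh1-intact array. The difference was 0.42 (SE 0.14, limma adjusted p = 0.849), or 1.34 times. On this chosen probe set it stayed between 0.31 and 0.53 with any 1 array left out. The other 3 Pdk1 probe sets differed by 0.23 (SE 0.20), 0.83 (SE 0.37) and 0.12 (SE 0.39), the same sign in all 4. The last of these was 0.074 without Cdh1-intact array 2. It read 5.96, 6.09 and 7.40 on the Cdh1-deficient arrays, against 6.40, 6.27 and 6.42 on the Cdh1-intact arrays. Its sign thus rested on Cdh1-deficient array 3. The set at 0.23 read 10.67, 10.58 and 10.85 on the Cdh1-deficient arrays, against 10.06, 10.64 and 10.71 on the Cdh1-intact arrays. Its groups overlapped, with Cdh1-intact array 1 the lowest, while those of the set at 0.83 did not overlap. Pdk2 differed by 0.077 (SE 0.19) at a mean level of 4.40, and Pdk3 by −0.0069 (SE 0.18). Without Cdh1-intact array 2 these were −0.070 and 0.15. Of the E1 subunits of the complex, Pdha1 read 10.99, 10.95 and 10.91 on the Cdh1-deficient arrays and 10.73, 10.84 and 10.88 on the Cdh1-intact arrays. Those groups separated narrowly with a difference of 0.13 (SE 0.094), but the second Pdha1 probe set gave −0.12 (SE 0.12), so the mean over both was 0.0079. Pdhb differed by 0.052 (SE 0.11), or −0.022 without Cdh1-intact array 2. Pgd, which makes NADPH in the pentose phosphate pathway, differed by 0.061 (SE 0.17), and its 4 probe sets gave 0.061 to 0.12. All 4 were highest on Cdh1-deficient array 2, and the difference of the chosen set was −0.080 without that array.

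Hif1a, the oxygen-regulated HIF subunit, is controlled mainly by protein breakdown. Its transcript read 9.89, 10.21 and 10.04 on the Cdh1-deficient arrays, against 9.85 to 10.65 on the Cdh1-intact arrays, with a difference of −0.12 (SE 0.23). Without Cdh1-intact array 2, the highest of the 6, this was 0.12. The 4 Hif1a probe sets disagreed in sign. The next highest, at 7.21 on average, gave 0.033 (SE 0.39), or 0.37 without that array. Vegfa, the angiogenic factor, read 7.06, 6.68 and 6.96 on the Cdh1-deficient arrays and 7.11, 7.32 and 6.98 on the Cdh1-intact arrays. It differed by −0.23 (SE 0.15), with overlapping groups. Leaving out Cdh1-intact array 2 gave −0.14 and leaving out Cdh1-deficient array 2 gave −0.12. Bnip3, a mitophagy receptor induced by HIF, read 7.66, 7.58 and 7.51 on the Cdh1-deficient arrays, against 7.01, 7.57 and 7.55 on the Cdh1-intact arrays. Cdh1-intact array 1 alone was low, and the difference of 0.20 (SE 0.18) was 0.020 without it. The 2 targets thus differed in opposite directions and neither passed.

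Spread between arrays was described for the 29 genes beside all genes. Their median range over the 6 arrays was 0.65 on the log2 scale, beside 0.54 for all genes. The median SD within a group was 0.17 in Cdh1-deficient and 0.28 in Cdh1-intact cells, beside 0.15 and 0.21 over all genes, and 23 of the 29 (79.3%) had the larger SD in Cdh1-intact cells, as did 65.5% of all genes. Cdh1-intact array 2 was the highest of the 6 for 12 of the 29 (41.4%), beside 21.7% of all genes, and the lowest for 6 (20.7%), beside 24.0%. The 12 were Hk1, Pfkl, Pfkp, Aldoa, Tpi1, Pgk1, Pgam1, Ldhb, Slc16a3, Pdk3, Hif1a and Vegfa. The 6 were Hk2, Pkm, Slc16a1, Pdk2, Pdhb and Pfkfb4. Among the 29, 9 (31.0%) lay over 0.5 from the median of the other 5 arrays, beside 22.3% of all genes. Cdh1-deficient array 3 was the highest for none of the 29, beside 13.8% of all genes. These shares are descriptions of 1 array against 5, with no test.

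**Figure D4:**
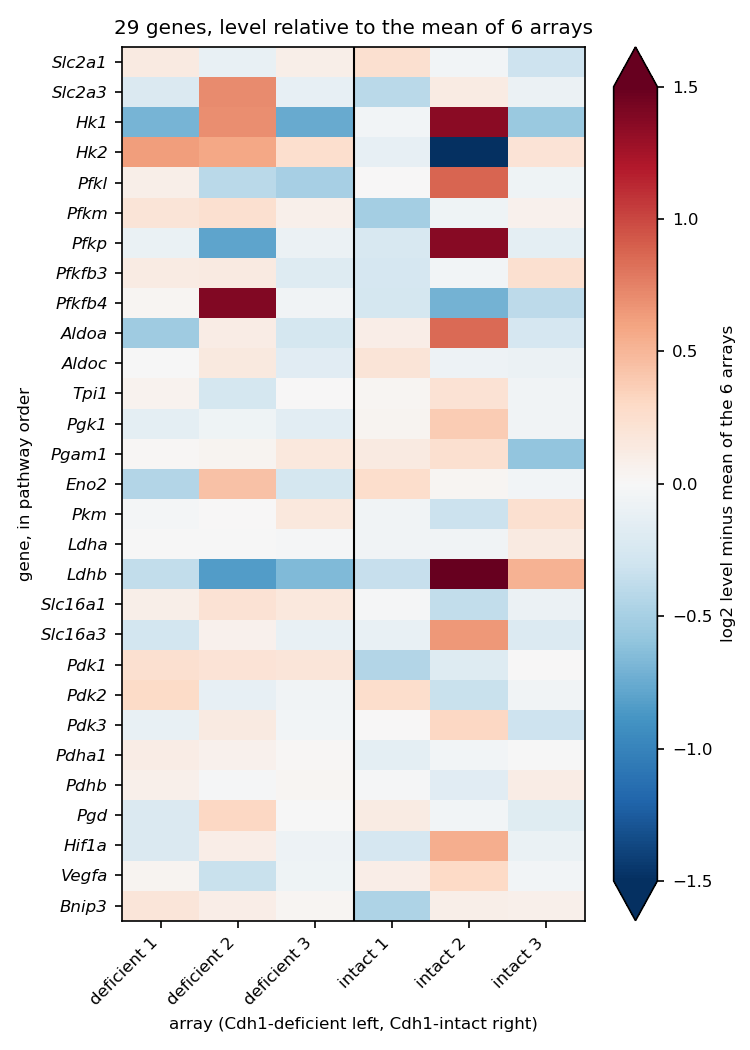
Level of each of the 29 genes on each array, as log2 level minus that gene's mean of the 6 arrays (colour, held at 1.5 either way), with Cdh1-deficient arrays left of the black line and Cdh1-intact arrays right. Cdh1-intact array 2 is deep red for Hk1, Pfkp and Ldhb and deep blue for Hk2, and Cdh1-deficient array 2 is deep red for Pfkfb4.

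**Figure D5:**
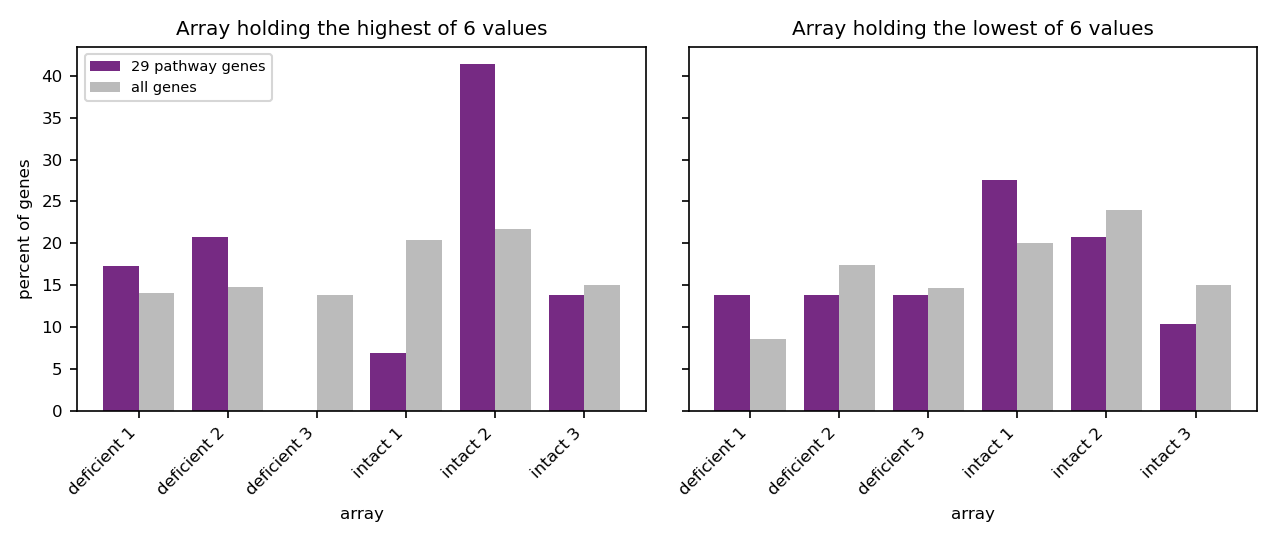
Percent of the 29 genes (purple) and of all genes (grey) for which each array holds the highest (left) or lowest (right) of the 6 values. Cdh1-intact array 2 holds the highest value of 41.4% of the 29 genes, beside 21.7% of all genes.

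Neighbouring genes of the pathway were read from 6 fixed lists, of which 86 of 95 genes were measured. None passed (limma, over all genes). At an unadjusted p under 0.05, 6 were higher and 1 lower (8.14%, beside 5.50% of all genes), and 35 of the 86 had differences above 0. Of 14 other glycolytic enzymes, 6 were above 0. Pfkfb2, a further PFKFB form, read 5.43, 5.80 and 5.76 on the Cdh1-deficient arrays, against 4.82, 5.07 and 5.33 on the Cdh1-intact arrays. Its difference was 0.59 (SE 0.18), but 0.092 when all its probe sets were averaged. Gapdhs, the sperm form of glyceraldehyde phosphate dehydrogenase, differed by −0.30 (SE 0.14). Of 15 other transport genes 7 were above 0, with the lysosomal carrier gene Slc2a6 at 0.35 (SE 0.12) and Slc2a12 at −0.17 (SE 0.13). The Slc2a12 value was −0.078 without Cdh1-deficient array 1, −0.11 without Cdh1-intact array 3 and −0.061 when its probe sets were averaged. Of 11 other genes of mitochondrial pyruvate use 5 were above 0. Pyruvate carboxylase (Pcx) differed by 0.42 (SE 0.18), or 0.23 without Cdh1-intact array 3, and the pyruvate carrier subunit Mpc1 by −0.23 (SE 0.13), or −0.14 without Cdh1-intact array 2. Among 12 other pentose pathway genes 6 were above 0, with the ribokinase Rbks at 0.63 (SE 0.19) and transaldolase (Taldo1) at −0.27 (SE 0.16), or −0.18 without that array.

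Oxygen sensing and hypoxia-induced genes were read in the same way. Of 11 genes of HIF subunits and oxygen sensors 5 were above 0. Arnt, the constant partner of HIF1A, read 8.65, 8.90 and 9.20 on the Cdh1-deficient arrays, against 7.99, 8.10 and 8.09 on the Cdh1-intact arrays. Every Cdh1-deficient array was above every Cdh1-intact array, by 0.86 on average (SE 0.16, limma adjusted p = 0.849), and no smaller than 0.72 with any 1 array left out. Averaged over all its probe sets the Arnt difference was 0.41. Like Slc16a1 it lies on chromosome 3, whose shift is given above, as does the ubiquitin ligase gene Siah2. Siah2 read 8.76 on Cdh1-intact array 2 and 7.09 to 7.58 elsewhere, and its difference of −0.50 (SE 0.40) was −0.054 without that array and −0.76 without Cdh1-intact array 3. Of 23 hypoxia-induced genes 6 were above 0 and 17 below, with a median of −0.15, where 49.1% of all genes were below 0. Their mean level overlapped between the groups, at 7.20 to 7.33 on the Cdh1-deficient arrays and 7.25 to 7.39 on the Cdh1-intact arrays. In each direction 1 had an unadjusted p under 0.05 (limma), and the list as a whole was not tested. P4ha1, a collagen prolyl hydroxylase, read 6.81, 6.66 and 6.88 on the Cdh1-deficient arrays, against 7.43, 7.02 and 7.14 on the Cdh1-intact arrays, a difference of −0.41 (SE 0.14), or −0.27 when its probe sets were averaged. Mxi1, a MYC antagonist, read 10.25, 10.25 and 10.60 on the Cdh1-deficient arrays, against 10.16, 8.92 and 9.49 on the Cdh1-intact arrays. The groups did not overlap, with a difference of 0.84 (SE 0.32), or 0.54 without Cdh1-intact array 2, which was the lowest, and 0.56 when its probe sets were averaged.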

How the data were processed

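The deposited values are on a log2 scale, 1 per probe set and array, and were made by the authors with RMA (version not stated) per the submitters' processing notes. Since RMA aligns the distributions of the arrays, a change of total RNA per cell cannot be seen. The alignment was not exact, as the median over genes ran from 5.88 on Cdh1-intact array 2 to 6.01 on Cdh1-deficient array 2. There were 45101 probe sets on 6 arrays, whose small number limits the precision. Names came from the platform annotation, where 34945 had 1 symbol, 932 had several and the others are unnamed here. Of 18193 genes, 18032 matched the RefSeq table of GRCm38.p6 by gene identifier, which gave chromosomes. No filter on level was used.

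Groups and replicate numbers came from the sample titles. Differences, Cdh1-deficient minus Cdh1-intact, were tested on all genes with a two-sided limma fit (limma 3.58.1, R 4.3.3, eBayes without trend, Benjamini-Hochberg over all genes, threshold 0.05), and the test was tried on simulated data. SE is the moderated standard error. A permutation of 3 against 3 arrays cannot reach that threshold and none was run. All members were named, with the gene of smallest unadjusted p in each direction of each pathway list, 7 lineage markers, Fzr1 and Mycn. The members, lists and tests were chosen with earlier results of these data known. Alternatives were other normalizations, probe set choices, level filters, variance models, array weights, a replicate block, Xist as a covariate and each array left out. Mycn, the transgene, read 13.62 ± 0.12 in Cdh1-deficient and 13.35 ± 0.20 in Cdh1-intact cells (log2, SD, n = 3 each), a difference of 0.27, or 0.16 without Cdh1-intact array 2.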

Additional observations from a re-analysis of the deposited data

How the results depend on the processing

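Under 17 alternatives no member passed the adjusted threshold, and the lowest adjusted p of any member was 0.406 (limma). Of 481 member differences recomputed, 452 kept their sign and 29, in 14 genes, did not, and the cause was not tested. With Xist as a covariate 1 gene of all passed, Cym (−4.10, adjusted p = 0.0271), chosen after its value was seen. The count of members at an unadjusted p under 0.05 was 1 with the mean of all probe sets (Pfkl). It was also 1 with suffixed probe sets left out (Slc16a1), where 21 members were measured, and ran from 0 to 3 with single arrays left out.

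Signs turned for Pfkfb3 with quantile normalization (−0.037), the mean of all probe sets (−0.068), array weights (−0.026) and Xist (−0.059). They also turned for Aldoc with Xist (0.060), Pdk3 with array weights (0.033), and Slc2a3 (−0.087) and Hif1a (0.033) without suffixed probe sets. With single arrays left out, the differences that changed sign ran from −0.98 to 0.045 for Hk1, −0.093 to 0.077 for Aldoc, −0.12 to 0.30 for Pgam1, −0.053 to 0.23 for Pkm and −0.054 to 0.043 for Ldha. The range was −0.060 to 0.22 for Slc2a1, −0.045 to 0.41 for Slc2a3, −0.37 to 0.053 for Slc16a3, −0.070 to 0.23 for Pdk2 and −0.16 to 0.15 for Pdk3. It was −0.022 to 0.12 for Pdhb, −0.085 to 0.17 for Pfkfb3, −0.28 to 0.12 for Hif1a and −0.080 to 0.18 for Pgd. The median over members ran from −0.060 to 0.051 in the same fits, and 8 to 11 members had groups that did not overlap (27.6% to 37.9%, beside 17.3% to 28.4% of all genes). Fewer arrays separate more easily, so those counts are not comparable with the 8 of all 6 arrays. With all arrays the count was 6 after quantile normalization, with probe sets averaged or with suffixed probe sets left out. Member differences moved by over 1.5 times or turned for 12 of 29 with Xist, 10 with array weights, 9 with probe sets averaged, 8 after quantile normalization and 8 to 20 with single arrays left out. With the replicate block 2 members had an unadjusted p under 0.05 (Hk1 and Pdk1) and none passed. Same-numbered arrays did not deviate together (correlations of −0.14, 0.011 and 0.041 across genes), so the numbers were not taken to pair the mice.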
